A study of Mus musculus with 2 samples.

Results

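The miR-30 family was described in the liver of mouse embryos at embryonic day 14.5. It comprises the 6 microRNA genes Mir30a, Mir30b, Mir30c-1, Mir30c-2, Mir30d and Mir30e, which were taken by gene symbol from the 1973 microRNA genes of the count tables. The only group was whole liver of strain B6NCrl, sequenced as 2 small RNA libraries, replicate 1 and replicate 2, made from RNAs under 30 nucleotides. No treatment or mutation is given in the labels. These describe each sample as 1 liver, collected on different days, but give its sex as pooled and the same donor ID to each, which makes it uncertain whether the livers are independent animals. Spread and p-values therefore concern these 2 libraries and not a condition.

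MicroRNAs are short RNAs cut from a hairpin precursor. Either arm of the hairpin can yield a mature product, named 5p or 3p, and the bases near its 5′ end, the seed, pair with target messenger RNAs. The miR-30 genes give 5p products with a common seed and lie as pairs on different chromosomes. In zebrafish the family is required for bile ducts to form. The liver of this stage holds immature hepatocytes and also makes blood, and the counts of whole tissue do not show which cells the reads came from.

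The RefSeq sequences (build GRCm38.p6), found for 4 of the 6 members, show what the family has in common and where its copies can be told apart. The 5p products follow 5′ to 3′, with the seed (bases 2 to 8) in capitals. Mir30c-1 and Mir30c-2 give the same 5p product.
miR-30a-5p: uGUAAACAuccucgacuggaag
miR-30c-5p: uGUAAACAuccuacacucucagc
miR-30e-5p: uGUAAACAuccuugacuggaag
The seed was identical in all of these, and the first 12 bases of miR-30a-5p were shared with each of the others. miR-30a-5p and miR-30e-5p differed at 1 base, C13U, counted from the 5′ end of miR-30a-5p.

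The 3p products split the family differently. Mir30a and Mir30e shared a 3p seed, and so did Mir30c-1 and Mir30c-2, as the capitals at bases 2 to 8 show.
miR-30a-3p: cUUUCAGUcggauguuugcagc
miR-30e-3p: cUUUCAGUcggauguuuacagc
miR-30c-1-3p: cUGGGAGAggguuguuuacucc
miR-30c-2-3p: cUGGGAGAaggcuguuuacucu
miR-30e-3p differed from miR-30a-3p at 1 base (G18A). miR-30c-2-3p differed from miR-30c-1-3p at 3 bases (G9A, U12C and C22U).

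Each gene had a neighbour from the same family on the same strand. On chromosome 4, minus strand, Mir30e (120772606 to 120772697) and Mir30c-1 (120769534 to 120769622) lie 2983 bases apart. Both are in introns of Nfyc, the gene of a subunit of the CCAAT-binding transcription factor NF-Y. No annotated Nfyc exon lies between them, and 6 of the 10 Nfyc transcripts in the GENCODE M21 annotation span both. On chromosome 1, plus strand, Mir30a (23272269 to 23272339) and Mir30c-2 (23291701 to 23291784) are 19361 bases apart. Mir30a has no annotated host gene, while Mir30c-2 lies in an exon of the long noncoding RNA Gm27028. On chromosome 15, minus strand, Mir30d (68341208 to 68341289) lies in an exon of the long noncoding RNA Gm20732, and Mir30b (68337415 to 68337510), 3697 bases away, has no annotated host. A host on the same strand was therefore annotated for 4 of the 6 members, against 220 of the 332 microRNA genes (66.3%) that reached 10 counts in both libraries. Host transcripts were not measured in these libraries.

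**Figure D1:**
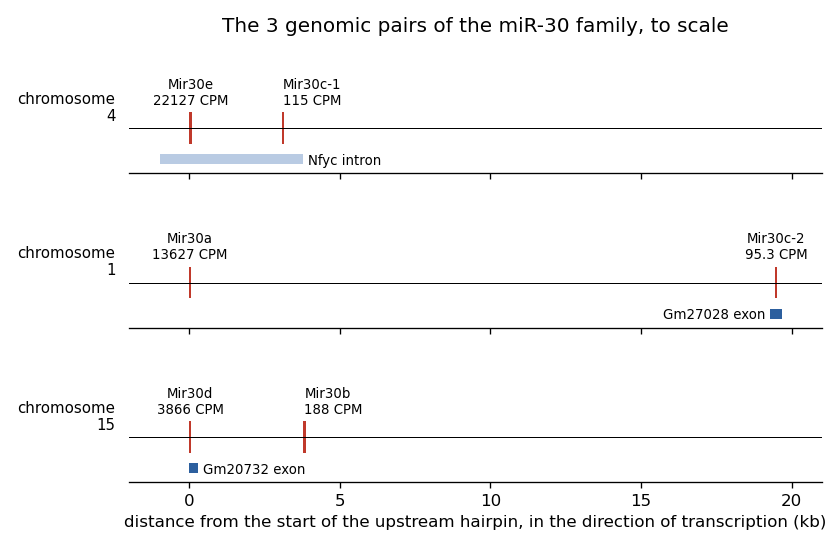
Positions of the 6 hairpins (red) in their 3 genomic pairs, as the distance in kb from the upstream hairpin of each pair in the direction of transcription, with host exons in dark blue, the Nfyc intron in light blue and the mean level of each gene. In each pair the upstream gene had the higher level, and the chromosome 1 pair has the widest gap (19361 bases).

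Levels are given as CPM, the counts on the gene's own strand per 1000000 such counts over all microRNA genes. The totals were 2353946 counts in replicate 1 and 3132763 in replicate 2. All 6 members had at least 205 counts in each library. Together they came to 38138 CPM in replicate 1 and to 41899 CPM in replicate 2, a mean of 40018 ± 2659.5 CPM (SD, n = 2). As a share of all gene counts this was 3.81% (3.79 to 3.84, exact 95% limits by Clopper-Pearson) for replicate 1 and 4.19% (4.17 to 4.21) for replicate 2. Intervals cover counting error only, since reads copied by PCR are not independent molecules. Among 12 microRNA families with several loci that were summed in the same way, the miR-30 family ranked 4 by mean share, next to the miR-26 family with 3.83% and 3.90%. This rank holds for uniquely mapped reads only, since other families, miR-26 and let-7 among them, also have genes with a shared mature sequence (Mir26a-1 and Mir26a-2, for example). The higher of these neighbouring families was miR-26 in replicate 1 and miR-30 in replicate 2.

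Mir30e, Mir30a and Mir30d held nearly all of the family's uniquely mapped counts. Mir30e stood at 21045 CPM in replicate 1 and at 23209.9 CPM in replicate 2 (mean 22127 ± 1531, SD, n = 2). It was the twelfth highest of all 1973 genes by mean level and gave 55.2% and 55.4% of the family's counts. Mir30a had 12992 and 14263 CPM (13627 ± 899), or 34.1% and 34.0% of the family, and ranked 23. Mir30d had 3723 and 4009 CPM (3866 ± 202), or 9.76% and 9.57%, and ranked 54. These 3 genes together held 99.0% of the family's counts in each library, a share that reads of the miR-30c genes left out as multi-mapping, described further on, would lower.

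The other 3 genes were far lower. Mir30b had 187 and 188 CPM (188 ± 0.472) and ranked 160. Mir30c-1 had 104 and 125 CPM (115 ± 15.4) and ranked 187. Mir30c-2 had 87.1 and 103 CPM (95.3 ± 11.6) and ranked 193. They stood near the median of 173 CPM over the 332 genes, and together gave 0.991% and 0.995% of the family's counts.

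**Figure D2:**
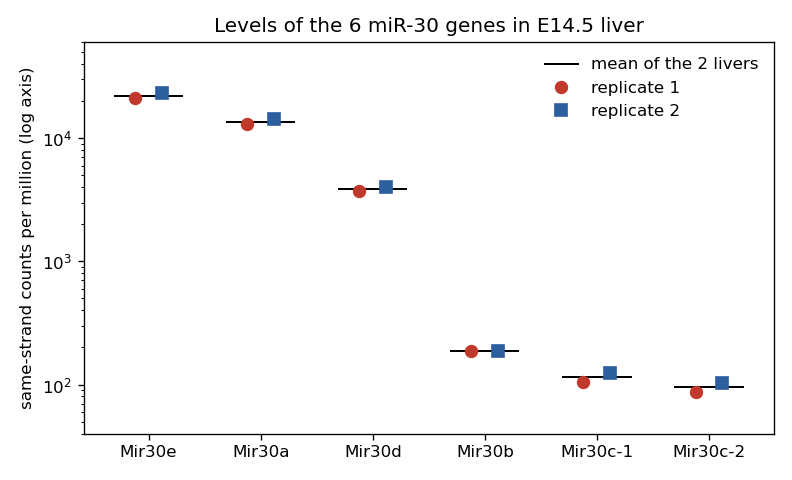
Level of each miR-30 gene in replicate 1 (red circles) and replicate 2 (blue squares) in CPM on a log axis, with the mean of the 2 livers as a line. Mir30e, Mir30a and Mir30d lie between 3723 and 23209.9 CPM, and Mir30b, Mir30c-1 and Mir30c-2 between 87.1 and 188 CPM.

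The order of the 6 levels was the same in each library. It was also the same when CPM were divided by hairpin length (71 to 96 bases), although a small RNA read is a whole product and not a fragment of the hairpin. Mir30e was 1.62-fold above Mir30a in replicate 1 (95% exact interval 1.60 to 1.64) and 1.63-fold in replicate 2 (1.61 to 1.65), so this ratio was nearly constant. Mir30a was 3.49-fold and 3.56-fold above Mir30d. The widest gap was the next, from Mir30d to Mir30b, with 19.9-fold and 21.3-fold. Mir30b was above Mir30c-1 by a mean of 1.64-fold, with exact intervals of 1.54 to 2.12 in replicate 1 and 1.32 to 1.71 in replicate 2. Mir30c-1 and Mir30c-2 were the only neighbours in this order whose values nearly met, with a lowest value of 104 CPM for Mir30c-1 and a highest of 103 CPM for Mir30c-2. Their ratio was 1.19 in replicate 1, with an interval that includes equal levels (0.984 to 1.44), and 1.21 in replicate 2 (1.04 to 1.41). The difference of their means was of the size of their spread between livers. Both genes were lower in replicate 1, however, so that spread is not the spread of their ratio.

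The low level of the miR-30c genes has to be read with their sequence. Reads that mapped to more than 1 place, 34.0% of all reads in replicate 1 and 33.1% in replicate 2, were in a line of their own and not in the gene counts. The hairpins of Mir30c-1 and Mir30c-2 have an identical stretch of 28 bases, shown in capitals, which holds the whole of miR-30c-5p (23 bases) and 5 bases after it.
Mir30c-1: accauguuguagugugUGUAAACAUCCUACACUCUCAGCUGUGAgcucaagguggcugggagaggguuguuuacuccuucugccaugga
Mir30c-2: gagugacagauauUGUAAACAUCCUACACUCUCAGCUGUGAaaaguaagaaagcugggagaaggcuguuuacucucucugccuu
A read that lies within this stretch matches both genes. The counts of Mir30c-1 and Mir30c-2, and with them the family sum, are therefore lower limits, and how many reads of miR-30c-5p were left out was not tested. Between the hairpins of Mir30a and Mir30e the longest identical stretch was 18 bases, shorter than either mature product, and it was 12 bases between either of these and a miR-30c hairpin.

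Across the table, detected genes that give a mature product also made by another gene had a lower median level than detected genes that do not, while the share of genes detected went in either direction. Of the genes with RefSeq mature sequences, 36 of 53 with 1 of their 2 products shared reached 10 counts in both libraries, with a median of 51.8 CPM. Of those with every listed product shared, 5 of 34 did (14.7%), with a median of 28.7 CPM. Of those with no shared product, 260 of 829 did (31.4%), with a median of 249 CPM. Mir30c-1 and Mir30c-2 belong to the class with 1 shared product, of which 67.9% were detected, and lay above 63.9% and 55.6% of its detected genes. Mir30a and Mir30e belong to the class with none and lay above 91.9% and 95.8% of its detected genes.

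**Figure D3:**
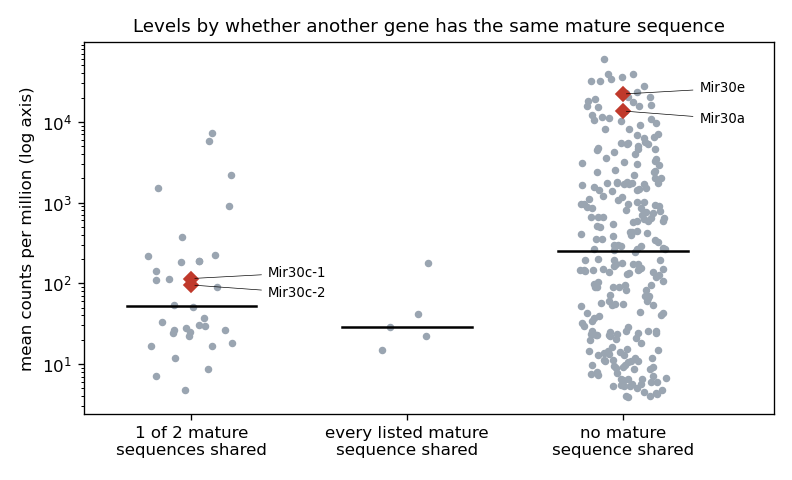
Mean level in CPM (log axis) of detected genes, by whether another gene in the RefSeq table has the same mature sequence, with miR-30 genes as red diamonds and class medians as lines. Mir30c-1 and Mir30c-2 lie somewhat above their class median of 51.8 CPM, and Mir30a and Mir30e are near the top of the class with no shared sequence (median 249 CPM).

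No member had a count on the opposite strand in either library. For Mir30e, 0 opposite-strand counts beside 49538 and 72711 on its own strand allow up to 0.00606% and 0.00413%. GENCODE M21 also annotates Mir30f on the strand opposite Mir30e. Its own row was not analysed here. For the least counted member, Mir30c-2, the limits were 1.46% and 0.926%. In this the members were like most genes, since 292 of the 332 had no opposite-strand count, although such counts made up 9.60% and 10.2% of all gene counts.

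Besides the 6 members, 1 gene with RefSeq mature sequences shares the seed. This was Mir384 on the X chromosome, whose 5p product has been studied in rat neurons and differs from the family after base 8.
miR-384-5p: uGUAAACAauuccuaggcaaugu
Mir384 had 18 counts (7.65 CPM) in replicate 1 and 3 counts (0.958 CPM) in replicate 2, so it added little to the reads with this seed. Its ratio was 7.99 with an exact interval of 2.33 to 42.3, and it was under the minimum of 10 counts for the test below. A list of neural microRNAs was also higher in replicate 1, with 0.0258% against 0.00233% of the counts, nearly all from Mir137. Of its 6 measured genes, 3 were at 0 in both libraries. Whether this list and Mir384 differ for the same reason was not tested.

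The 2 livers differed little in this family, and the members that passed the test were all lower in replicate 1. The family sum had a ratio of 0.910 of replicate 1 over replicate 2 (95% exact interval 0.903 to 0.918), which is lower in replicate 1. Each ratio was tested with a two-sided exact binomial test of the counts against the library totals, and p-values were adjusted over the 332 genes by the Benjamini-Hochberg method. By this test 4 of the 6 members were lower in replicate 1, and 0 were higher there. Over all 332 genes 41.9% were called in either direction and 23.5% as higher in replicate 2 (78 of 139 calls, or 123 of 159 when scaled to all reads). When the minimum was raised to 100 counts, which all 6 members reached, 60.5% were called in either direction (130 of 215). Of these 215 genes, 37.7% were called as higher in replicate 2. A call was therefore common among genes of this depth.

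The 3 abundant members had nearly the same ratio. For Mir30e it was 0.907 (95% exact interval 0.896 to 0.917, adjusted p = 2.07e-62 by the exact test), for Mir30a 0.911 (0.898 to 0.924, adjusted p = 2.67e-35, exact) and for Mir30d 0.929 (0.904 to 0.954, adjusted p = 5.54e-07, exact). These differences are beyond counting error but small, and with 1 library per liver the test does not say how far livers of this stage vary.

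The low members were less certain. Mir30c-1 had a ratio of 0.826 (0.701 to 0.972) at the edge of the threshold, with an adjusted p of 0.0486 by the exact test. This call was lost under 6 alternatives, with an adjusted p of up to 0.0930 (exact binomial test). Mir30c-2 had a similar ratio of 0.842 (0.703 to 1.01, adjusted p = 0.121, exact), and Mir30b one of 0.996 (0.879 to 1.13, adjusted p = 1.00, exact), which was a little above 1 by TMM or DESeq2 scaling. The intervals of Mir30c-2 and Mir30b include both equal levels and the ratio of the family sum. On the log2 scale the members' ratios ran from -0.27 to -0.00 with a median of -0.14, and 42.8% of all genes tested lay in that range. The median of all genes tested was -0.03, and the median size of their log2 ratio was 0.16.

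**Figure D4:**
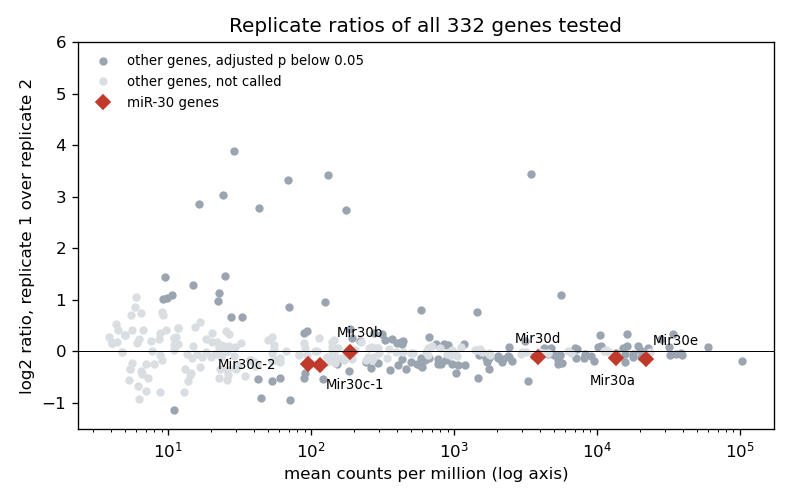
Log2 ratio of replicate 1 over replicate 2 against the mean level in CPM (log axis) for 332 genes, with genes past an adjusted p of 0.05 in dark grey, others in light grey and the miR-30 genes as red diamonds. The miR-30 genes lie between -0.27 and -0.00, within the main band of genes.

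Summed levels of microRNAs that mark cell types also differed between the libraries. The hepatocyte microRNAs, led by Mir122, held 10.6% of the counts in replicate 1 and 11.9% in replicate 2, with 5 of 5 detected and a ratio of 0.887 (0.882 to 0.891). Of these, Mir122, Mir192 and Mir194-2 were called lower in replicate 1, and Mir194-1 and Mir148a were not called. The epithelial and biliary list held 0.346% and 0.385%, with 6 of 6 detected and a ratio of 0.899 (0.874 to 0.925). In this list Mir429, Mir200b and Mir31 were called lower in replicate 1, while Mir200a, Mir141 and Mir200c (389 and 391 CPM) were not called. Both sums were lower in replicate 1, as was the miR-30 family. The sum of the erythroid list was higher in replicate 1, with a ratio interval of 1.24 to 1.26, but its 3 genes did not move together. Mir451a (38019.6 and 30243 CPM) and Mir144 (11594 and 9272 CPM) were called higher in replicate 1, and Mir486 (405 and 516 CPM) was called lower there. The endothelial list had 6.25% and 5.86% (ratio 1.07), nearly all from Mir126a (61517 and 57654 CPM), which was called higher in replicate 1. Mir221 and Mir222 were not called. The white cell list had 1.06% and 0.999%, nearly all from Mir223 (10498 and 9885 CPM), while Mir155 (77.7 and 104 CPM) was called lower in replicate 1. The mesenchymal list had 1.80% and 1.71%, mostly from Mir143 (16834 and 15638 CPM), while Mir214 (873 and 1176 CPM) was called lower in replicate 1. Their part in the miR-30 ratios was not tested, and in whole tissue fewer cells of a type cannot be told apart from less RNA per cell. Muscle microRNAs were at 0.00310% and 0.00140%, with 2 of the 3 measured genes at 0 in both libraries.

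Within each genomic pair the upstream gene was many times higher. Mir30e was 203-fold above Mir30c-1 in replicate 1 (95% exact interval 179 to 231) and 185-fold in replicate 2 (168 to 205), a mean of 194 ± 12.7 (SD, n = 2). Mir30a was 149-fold (130.0 to 172) and 138-fold (124 to 154) above Mir30c-2, a mean of 144 ± 7.97. Both ratios involve a miR-30c gene whose count is a lower limit, so these ratios may be overstated. Mir30d was 19.9-fold (18.1 to 21.9) and 21.3-fold (19.6 to 23.2) above Mir30b, a mean of 20.6 ± 1.02. No RefSeq sequences were found for Mir30d and Mir30b, so whether either shares a mature product with another gene was not tested.

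Unequal neighbours were common in the table. Among the 117 pairs of neighbouring detected microRNA genes, on the same strand and within 50 kb, the higher gene was a median of 7.34-fold above the lower, with quartiles of 2.28 and 27.7. The pair of Mir30e and Mir30c-1 ranked 7 in this, that of Mir30a and Mir30c-2 ranked 10 and that of Mir30d and Mir30b ranked 35.

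Whether the genes of a pair changed together between the livers was tested with a two-sided Fisher's exact test on their counts, adjusted over the 117 pairs. For Mir30c-1 and Mir30c-2 the test covers only uniquely mapped reads, without those that lie within their shared stretch. None of the 3 miR-30 pairs was called, against 12.8% of all pairs. The odds ratio of replicate 1 over replicate 2 was 1.10 for Mir30e and Mir30c-1 (95% interval 0.933 to 1.29, unadjusted p = 0.275, adjusted p = 0.536, exact). It was 1.08 for Mir30a and Mir30c-2 (0.905 to 1.30, unadjusted p = 0.399, adjusted p = 0.644, exact). For Mir30d and Mir30b it was 0.932 (0.820 to 1.06, unadjusted p = 0.285, adjusted p = 0.546, exact). The intervals include an equal change of both genes and also unequal changes up to their bounds. The share of the family by locus was close between the libraries. Chromosome 4 gave 55.5% and 55.7% of the counts, chromosome 1 gave 34.3% and 34.3%, and chromosome 15 the rest (3910.5 and 4197 CPM). These shares mostly repeat the higher gene of each pair and say little on change within a pair. The lower gene held 0.490% and 0.538% of the chromosome 4 pair, 0.666% and 0.720% of the chromosome 1 pair and 4.79% and 4.48% of the chromosome 15 pair.

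**Figure D5:**
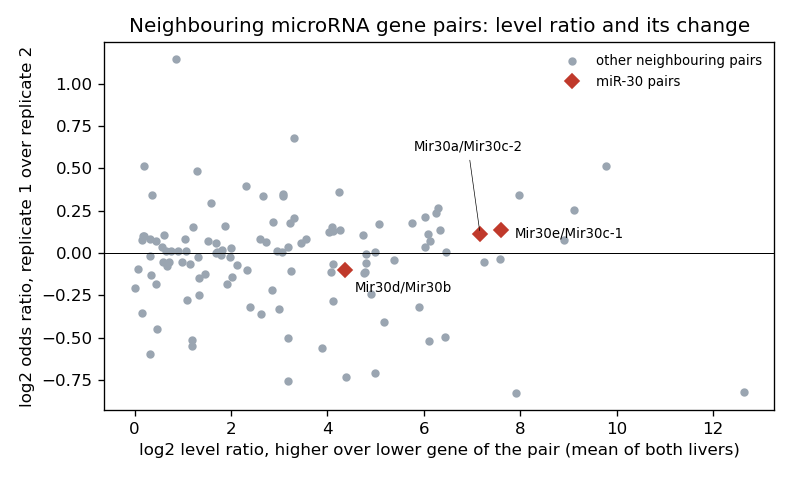
For 117 pairs of neighbouring microRNA genes, the log2 level ratio of the higher over the lower gene (mean of the 2 livers) and the log2 odds ratio of that ratio in replicate 1 over replicate 2, with the miR-30 pairs as red diamonds. Their odds ratios lie between 0.932 and 1.10. On the log2 scale this is -0.10 to 0.13, about the median size over all 117 pairs (0.129).

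The gene nearest to each member in level, by distance over the log2 CPM of the 2 libraries, was Mir431 for Mir30e (distance 0.147), Mir93 for Mir30a (0.0767) and Mir434 for Mir30d (0.0991). It was Mir181b-2 for Mir30b (0.0245), Mir3072 for Mir30c-1 (0.196) and Mir34c for Mir30c-2 (0.0839). With only 2 libraries this is likeness of level and of 1 ratio.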

How the data were processed

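The deposited tables hold raw counts of reads per microRNA gene for each library, regardless of strand, on the gene's strand and on the opposite strand. Per the labels and the notes deposited with the files, the build is mm10, the annotation M4, and each table comes from its own alignment. No aligner, counter, version or trimming step is named in the sources used here. Lines that name no gene held 18.6% and 17.7% of the reads of replicates 1 and 2 as unmapped, 34.0% and 33.1% as mapped to more than 1 place and 10.6% and 10.4% in no gene, and were left out of totals and tests.

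Gene symbols, positions and hosts came from GENCODE M21 on GRCm38, the assembly of mm10, by Ensembl ID without version (1894 of 1973 matched, and the 79 others held 3 counts). CPM are same-strand counts over library totals of 2353946 and 3132763. A count of 0 allows up to 3 counts, or 1.27 and 0.958 CPM. Log2 ratios have 0.5 added to each count. Genes reaching 10 counts in both libraries were compared by exact binomial tests (SciPy 1.17.1), and neighbouring pairs by Fisher's exact test (R 4.3.3), each adjusted over all such genes or pairs by Benjamini-Hochberg and called under an adjusted p of 0.05. With 1 library per liver, no count model with replicates could be fitted. Both tests were also run on simulated counts with known ratios. These counts varied by counting error alone, so PCR copies and further variation between libraries were not simulated.

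The members and lists were chosen with earlier results of these data known. Named genes are the members, their hosts, genes with the same seed and the gene nearest to each member in level. Families and marker lists give context. Of the listed markers, Mir142, Mir9-1 and Mir1a-2 were not analysed here under those symbols. The alternatives were counts regardless of strand, TMM (edgeR 4.0.16) and DESeq2 1.42.0 scaling, totals without the highest gene or of all reads, other pseudocounts, minimum counts and pair distances, hairpin length and leaving out each replicate. A two-sided p made by doubling the smaller tail was chosen after seeing the data.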

Additional observations from a re-analysis of the deposited data

How the results depend on the processing

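Of 187 recomputed values, 154 were classed as unchanged. For gene ratios this meant the same direction and side of the threshold, and for levels a move smaller than the spread between livers. Counts of called genes could differ within this class, as members called did, from 4 to 3 with TMM scaling. Some of these 154 values could not have changed. With 2 libraries, leaving out 1 always moves a mean by less than the SD, and the members' opposite-strand shares were 0 in both libraries. The order of the 6 levels was the same under every alternative tried, but only division by hairpin length could have changed it. The order was already the same in each library. The other alternatives rescale all members of a library alike, leave out 1 library or add no counts to the members. No alternative added multi-mapping reads, so their effect on the place of the miR-30c genes was not tested. The mean family share was 3.60% with counts regardless of strand, 4.47% without the highest gene in the totals and 1.52% of all reads, and ran from 3.81% to 4.19% when 1 replicate was left out. The family ratio of 0.910 was 0.926 by TMM, 0.924 by DESeq2 size factors, 0.897 without the highest gene and 0.863 by all reads. Members called were 3 to 5 of 6. Mir30e, Mir30a and Mir30d were called under every alternative, and Mir30c-2 by all reads alone (adjusted p = 0.0285, exact binomial test). The ratio of Mir30b was 1.00 with counts regardless of strand and 1.01 by TMM and by DESeq2 size factors, and its log2 ratio was 0.003 with a pseudocount of 10, so its direction is undetermined. Genes higher in replicate 2 numbered 78, and 123 by all reads. No miR-30 pair was called under the alternatives tried, and the pair of Mir30a and Mir30c-2, too far apart, had no value with pairs within 10 kb. The odds ratios of the miR-30 pairs could not change under these alternatives, which altered only the set of pairs in the adjustment. The members had no opposite-strand counts, and an odds ratio does not depend on library totals. The cause of the shifts in family share, ratios and calls was not tested. No paired analysis was possible because there is 1 group. Depth limits the low members, whose counts of 205 to 589 leave intervals of ratios too wide to separate them from the family.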
